A study of Mus musculus with 17 samples.

Results

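Heparan sulfate is a long sugar chain carried by cell surface and matrix proteins, and the pattern of sulfate groups along it sets which growth factors and chemokines it binds. The 10 mouse genes described here encode enzymes that build, edit or cut that chain. They are the extracellular sulfatases Sulf1 and Sulf2, heparanase (Hpse), the polymerase Ext1, the epimerase Glce, and the sulfotransferases Ndst1, Hs2st1, Hs6st1, Hs6st2 and Hs3st1. They were listed by name and found by gene symbol among the 54146 genes of the deposited tables, and all 10 passed the filter on low counts that left 19557 genes for testing. The group was chosen by a measured value, in that Sulf2 had been seen to be higher in Clic4 knockout (KO) than wild-type (WT) lungs at day 14. Sulf2's values in that comparison are therefore a description and support nothing.

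RNA from mouse lung was sequenced in 17 libraries. There were 5 libraries from Clic4 KO mice at day 14 (8 weeks of age), 6 from WT mice at day 14 (8 weeks), 2 from KO mice at day 0 (6 weeks) and 4 from WT mice at day 0 (6 weeks). Clic4 encodes a chloride intracellular channel protein. The strain label, FVB/6DT1, is shared by all libraries, so nothing here compares strains. The library titles call the day 0 libraries Control and the others 14 Days. Whether 6DT1 was present in each lung is not given in the sources used here. Comparisons of days may therefore include a difference in 6DT1, which cannot be told apart from age. What happened at day 0 and between the days, and how the Clic4 allele was made, are not given in the sources used here. Age and day change together and cannot be told apart. The labels do not say that each library is 1 animal, so p-values measure the spread between these libraries, which may be technical.

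Library totals ran from 20607811 to 35743830 counts, and no library stood out as a copy of another in its own group. Pairs of libraries from different groups were not compared. Clic4 itself averaged 336 ± 38.6 counts per 1000000 (CPM) in KO day 14, 1043 ± 154 CPM in WT day 14, 326 ± 2.17 CPM in KO day 0 and 943 ± 13.1 CPM in WT day 0 libraries (SD, n = 5, 6, 2 and 4). The 2 genotypes did not overlap at either day. All 18 lists of cell type markers had counts for every marker in every group, lung epithelial and endothelial markers among them. Because the tissue is a mixture, fewer cells of a type and less RNA per cell cannot be told apart for any gene below.

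Ext1, with its partner Ext2, extends the chain from a linker on the core protein. Ndst1 then replaces acetyl groups with sulfate on glucosamine and starts the modified stretches, Glce turns glucuronic into iduronic acid, and Hs2st1, Hs6st1, Hs6st2 and Hs3st1 add sulfate at the 2-O, 6-O and 3-O positions. Sulf1 and Sulf2 act outside the cell and take 6-O-sulfates off finished chains, whereas heparanase cuts the chains. In lung, heparan sulfate lines alveolar and vascular basement membranes and holds fibroblast growth factors and chemokines.

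Sulf2 lies on the minus strand at chr2:166073089-166155663 (GRCm38, the same assembly as mm10), and Sulf1 on the plus strand at chr1:12692277-12861192. RefSeq promoter windows of 300 bases (250 before and 50 after a transcription start, GRCm38.p6) were read for 7 of the 10 genes. Sulf1, Ext1 and Ndst1 are not among them, and Ndst1 was left out by name. The 2 windows of Sulf2 are printed because it is the gene on which the results turn. Both are on the minus strand and are read 5′ to 3′. Capitals mark the GC box, GGGCGG or its reverse complement. The window at chr2:166155236-166155535 belongs to the downstream start, and that at chr2:166155634-166155933 to the upstream start.
Sulf2 window of the downstream start: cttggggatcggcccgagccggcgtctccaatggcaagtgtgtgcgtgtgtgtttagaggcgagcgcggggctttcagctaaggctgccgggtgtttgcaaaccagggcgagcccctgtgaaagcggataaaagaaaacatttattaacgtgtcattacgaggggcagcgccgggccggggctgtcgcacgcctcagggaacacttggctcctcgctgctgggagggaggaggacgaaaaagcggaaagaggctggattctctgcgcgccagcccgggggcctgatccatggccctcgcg
Sulf2 window of the upstream start: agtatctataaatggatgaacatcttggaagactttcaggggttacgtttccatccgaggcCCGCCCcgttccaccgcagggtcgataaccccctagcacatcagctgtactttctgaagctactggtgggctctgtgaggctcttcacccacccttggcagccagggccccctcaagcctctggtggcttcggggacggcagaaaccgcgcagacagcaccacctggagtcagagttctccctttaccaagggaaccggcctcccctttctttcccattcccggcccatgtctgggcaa
The downstream window had no GC box, 26 CpG dinucleotides and 62.3% G+C, whereas the upstream window had 1 GC box, 1 TATA box (TATAAA), 12 CpG dinucleotides and 58.0% G+C. The TATAAA letters lie near the 5′ end of the upstream window, far from its transcription start. Each held 2 E-boxes (CANNTG). Searched on both strands, with overlapping matches counted, the GC box was found in 35.7%, the TATA box in 13.6% and the E-box in 72.3% of all 32851 RefSeq promoter windows of this length. The window of Hs6st1, the gene whose level varied least, held 7 GC boxes and 47 CpG dinucleotides. These matches describe the letters only.

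The levels of the 10 mRNAs spanned a wide range. On the authors' scale of FPKM, fragments scaled for transcript length and library size, which allows comparison between genes, Ndst1 was the most abundant at 73.7 ± 5.72 (SD, n = 17 libraries). Hs2st1 averaged 26.4 ± 2.08 FPKM, Sulf1 20.6 ± 1.98 FPKM and Ext1 19.9 ± 2.06 FPKM. Below them were Hs3st1 at 16.6 ± 4.18 FPKM, Hs6st1 at 11.4 ± 0.488 FPKM and Sulf2 at 10.4 ± 1.27 FPKM. Glce averaged 7.52 ± 0.555 FPKM, Hpse 3.07 ± 0.444 FPKM and Hs6st2 only 1.03 ± 0.238 FPKM. Each of these values is a level over all groups. Complete separation from the next gene in the order was seen for Ndst1 over Hs2st1, Glce over Hpse and Hpse over Hs6st2. Sulf1 and Ext1 were not ordered reliably, since Sulf1 was the higher in 10 of the 17 libraries. Hs6st1 exceeded Sulf2 in 13 of 17 libraries. The initiating N-sulfotransferase was thus read more often per length than the 6-O-sulfotransferases or either sulfatase.

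**Figure D1:**
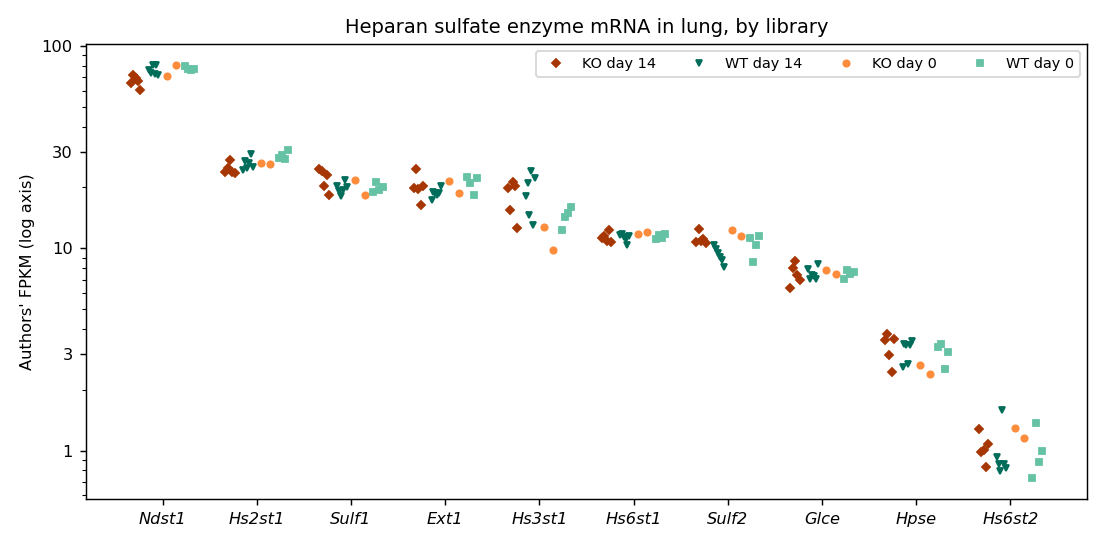
Level of each heparan sulfate enzyme mRNA in FPKM on a log axis, 1 symbol per library, by group, with genes ordered by mean level. Ndst1 lies highest at 60.7 to 81.0 FPKM and Hs6st2 lowest at 0.730 to 1.59 FPKM, and Hs3st1 has the widest scatter relative to its level.

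How much a gene varied between libraries was read from its CPM, which compares libraries for 1 gene. The coefficient of variation was 4.22% for Hs6st1 and 5.60% for Glce, the steadiest, against 24.1% for Hs3st1, 15.6% for Hs6st2 and 15.0% for Hpse. Sulf2 stood at 11.1% and Sulf1 at 10.1%. Read depth differs between these genes. Ndst1 had 7358 to 16636 counts per library and Sulf2 728 to 1277, but Hpse had 186 to 341 and Hs6st2 92 to 165, so the values of Hpse and Hs6st2 carry more counting error.

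Sulf2 mRNA was higher in Clic4 KO than in WT lungs at day 14. The KO day 14 libraries had 37.3, 42.3, 38.6, 39.6 and 36.0 CPM, and the 6 WT day 14 libraries had 28.2 CPM at the lowest, a median of 32.3 CPM and 33.5 CPM at the highest. Every KO library lay above every WT library. The means were 38.8 ± 2.38 CPM in KO libraries and 31.7 ± 1.90 CPM in WT ones (SD, n = 5 and 6), a log2 fold change of +0.29 with a standard error (SE) of 0.0549, or 1.22-fold. In edgeR's quasi-likelihood test with Benjamini-Hochberg adjustment over all genes, which called a gene at an adjusted p under 0.05, Sulf2 had an adjusted p of 0.0477 and was the last of the 21 genes called in this comparison. This call is what chose it. The call held in 5 of 26 alternative settings. It was lost with FPKM (adjusted p = 0.425 to 0.530 in limma), with limma-voom (0.0602) and when only the 2 groups were fitted (0.141). It was also lost when any 1 library other than KO day 14 library 5 or WT day 0 library 1 was left out, at adjusted p-values up to 0.162. The log2 fold change stayed between +0.24 and +0.31 throughout. In FPKM the KO day 14 libraries averaged 11.2 ± 0.744 and the WT day 14 libraries 9.30 ± 0.829, again without overlap.

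**Figure D2:**
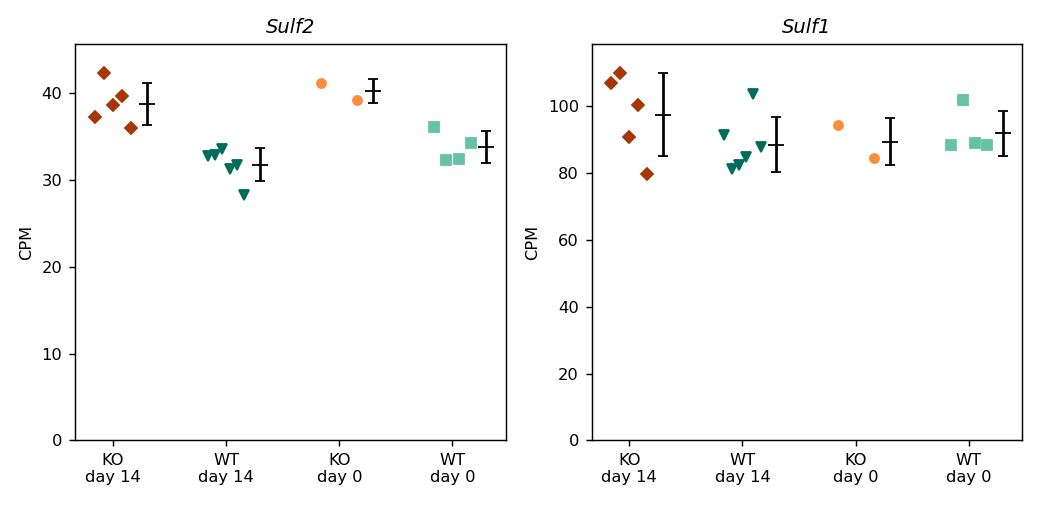
CPM of Sulf2 (left) and Sulf1 (right) in each library by genotype and day, with the mean and SD of each group beside the symbols and both axes starting at 0. Sulf2 symbols of KO libraries lie above those of WT libraries at both days, whereas Sulf1 symbols of the 2 genotypes overlap.

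The day 0 libraries are not among those whose difference chose Sulf2, but they entered the fit that gave its day 14 call, through the shared estimate of the spread. At day 0 Sulf2 had 41.2 and 39.2 CPM in the 2 KO libraries, against 36.1, 32.3, 32.4 and 34.3 CPM in the 4 WT libraries. Both KO libraries were above all WT libraries in CPM. In FPKM, however, the groups overlapped narrowly, with 12.3 and 11.5 FPKM in KO against 11.2, 8.60, 10.4 and 11.5 FPKM in WT libraries. The log2 fold change was +0.25 (SE 0.0778, 95% interval 0.087 to 0.41, 1.19-fold), with an unadjusted p of 0.0048 and an adjusted p of 0.619 in edgeR's quasi-likelihood test, so the gene was not called. It was positive in all 26 alternative settings, at log2 values of +0.18 to +0.29 and adjusted p-values of 0.348 to 0.910. The KO effect at day 14 minus that at day 0 was 0.04 on the log2 scale, given without a test because it contains the values that chose Sulf2.

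The annotated 3′ end of Sulf2 shares 154 bases with Ncoa3 on the opposite strand. Whether counting used strand is not given in the sources used here, so reads from those bases cannot be told apart. Ncoa3, a nuclear receptor coactivator, had log2 fold changes in KO over WT of -0.08 at day 14 (SE 0.0688, adjusted p = 0.773 in edgeR) and 0.00 at day 0 (SE 0.0983, adjusted p = 0.9996 in edgeR). The ratio of Sulf2's FPKM to its CPM, which moves with the transcript length used for scaling, had a coefficient of variation of 5.71% over the 17 libraries, and the median over 13739 genes was 2.61%. Sulf2's FPKM thus carries some variation that its counts do not.

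Sulf1, the second sulfatase, did not separate the genotypes at either day. It had 107, 110, 90.7, 100 and 79.8 CPM in KO day 14 libraries, against 81.1 CPM at the lowest, a median of 86.3 CPM and 104 CPM at the highest in the 6 WT day 14 libraries. The KO libraries held both the highest and the lowest value of the 11. Its log2 fold change came to +0.14 (SE 0.0796, 95% interval -0.027 to 0.31, adjusted p = 0.641 in edgeR). At day 0 the 2 KO libraries had 94.4 and 84.4 CPM, against 88.2, 102, 89.1 and 88.3 CPM in WT libraries (log2 fold change -0.04, SE 0.114, 95% interval -0.28 to 0.20, adjusted p = 0.970 in edgeR). The interval at day 14 includes a change of the size described for Sulf2, and that at day 0 does not.

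Because both sulfatases remove the same sulfate, the share of Sulf2 in their summed FPKM was followed as well. It was 33.6 ± 2.40% in KO day 14, 31.9 ± 2.65% in WT day 14, 37.2 ± 1.67% in KO day 0 and 34.3 ± 3.803% in WT day 0 libraries (SD, n = 5, 6, 2 and 4). Sulf1 therefore made up the larger part of sulfatase mRNA in all 17 libraries, with Sulf2 shares of 28.7 to 38.4%. The difference of KO minus WT was 1.69 percentage points at day 14, given without a test because it contains the values that chose Sulf2. At day 0 it was 2.98 points (exact two-sided permutation test, p = 0.467, where 0.0667 is the smallest p that 15 splits allow). Day 14 minus day 0 was -3.63 points in KO and -2.34 points in WT libraries, likewise given without a test.

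Among the enzymes that build and modify the chain, Ndst1 came closest to a difference between genotypes. Its KO day 14 libraries had 381, 429, 404, 395 and 364 CPM, against 418 CPM at the lowest, a median of 439 CPM and 486 CPM at the highest in WT day 14. Apart from 1 KO library at 429 CPM, KO values lay below all WT values, and in FPKM the groups did not overlap, with 60.7 to 71.7 in KO and 71.9 to 81.0 in WT libraries. The log2 fold change was -0.19 (SE 0.0547, 95% interval -0.30 to -0.070), with an unadjusted p of 0.00325 but an adjusted p of 0.317 in edgeR's quasi-likelihood test. At day 0, Ndst1 had 416 and 481 CPM in KO against 449 to 467 CPM in WT libraries (log2 fold change -0.02, SE 0.0781, adjusted p = 0.979 in edgeR), and this small value became positive (+0.08) without KO day 0 library 1. The difference between the KO effects at day 14 and day 0 was -0.17 (SE 0.0950, adjusted p = 0.988 in edgeR). Ndst1 shares 1553 bases with Rps14, a ribosomal protein gene on the opposite strand that had a log2 fold change of +0.03 in KO against WT at day 14 (SE 0.0431, adjusted p = 0.874 in edgeR).

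The 6-O-sulfotransferases add the sulfates that Sulf1 and Sulf2 remove. Hs6st1 was nearly level at day 14, with 37.4 to 43.2 CPM in KO and 37.1 to 41.3 CPM in WT libraries (log2 fold change 0.00, SE 0.0466, 95% interval -0.097 to 0.099). At day 0 it averaged 41.9 ± 1.61 CPM in KO libraries and 39.9 ± 0.850 CPM in WT ones (SD, n = 2 and 4), for which the log2 fold change was +0.07 (SE 0.0664, adjusted p = 0.878 in edgeR). Hs6st2, the low one, averaged 4.15 ± 0.790 CPM in KO libraries and 3.51 ± 0.247 CPM in WT ones at day 14 (SD, n = 5 and 6), for which the log2 fold change was +0.24 (SE 0.133, adjusted p = 0.637 in edgeR). Its interval of -0.043 to 0.52 is more than 2 times as wide as that of Hs6st1. At day 0, Hs6st2 had 4.59 and 4.10 CPM in KO against 3.03, 4.57, 3.62 and 4.08 CPM in WT libraries (log2 fold change +0.18, SE 0.189, adjusted p = 0.889 in edgeR). Its FPKM per CPM had a coefficient of variation of 23.2%, more than that of nearly all genes, so its FPKM and CPM need not order libraries alike.

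Hs2st1, the 2-O-sulfotransferase, was lower in both day 0 KO libraries, with 156 and 159 CPM, than in the WT libraries, with 168, 174, 163 and 181 CPM. The gap did not pass the test (log2 fold change -0.12, SE 0.0751, adjusted p = 0.797 in edgeR). At day 14 the values overlapped, at 141, 152, 160, 143 and 144 CPM in KO and 144 to 176 CPM in WT libraries (log2 fold change -0.07, SE 0.0523, adjusted p = 0.719 in edgeR). Hs3st1, which makes the 3-O-sulfated site that binds antithrombin, had 28.8, 23.6, 31.2, 30.4 and 19.3 CPM in KO day 14 libraries, against 19.95 CPM at the lowest, a median of 29.1 CPM and 35.9 CPM at the highest in WT day 14. Its genotype groups overlapped widely (log2 fold change -0.08, SE 0.154, adjusted p = 0.927 in edgeR). At day 0 it had 19.0 and 15.0 CPM in KO against 18.4, 21.4, 22.4 and 24.0 CPM in WT libraries (log2 fold change -0.34, SE 0.226, 95% interval -0.82 to 0.14, adjusted p = 0.810 in edgeR).

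Ext1, Glce and Hpse gave no call between genotypes. Ext1 averaged 59.0 ± 5.76 CPM in KO libraries and 56.8 ± 2.08 CPM in WT ones at day 14 (SD, n = 5 and 6), and 63.0 ± 0.903 CPM in KO libraries and 62.9 ± 4.86 CPM in WT ones at day 0 (SD, n = 2 and 4). Glce averaged 30.9 ± 2.13 CPM in KO libraries and 31.7 ± 2.14 CPM in WT ones at day 14, and 32.4 ± 0.0347 CPM in KO libraries and 32.2 ± 1.12 CPM in WT ones at day 0. The epimerase was thus within a few percent of WT at both days. Hpse averaged 9.47 ± 1.68 CPM in KO libraries and 9.09 ± 1.18 CPM in WT ones at day 14 (log2 fold change +0.06, SE 0.122, adjusted p = 0.933 in edgeR). At day 0 the 2 KO libraries had 7.69 and 6.92 CPM, against 9.48, 9.74, 7.38 and 8.74 CPM in WT libraries (log2 fold change -0.27, SE 0.178, adjusted p = 0.803 in edgeR).

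**Figure D3:**
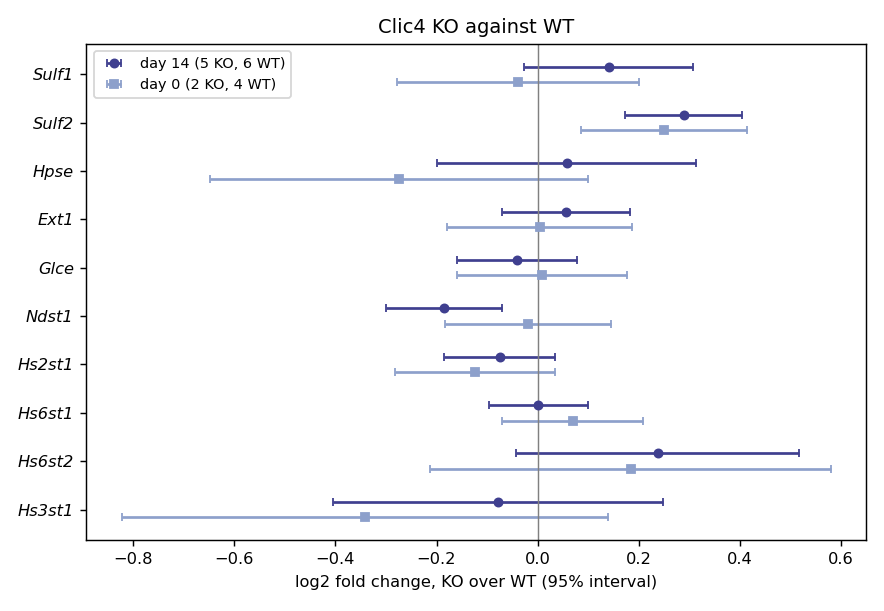
Log2 fold change of each gene in KO over WT lungs at day 14 (upper symbol of each pair) and day 0 (lower symbol), with 95% intervals from edgeR. Sulf2 lies above 0 at both days, and its day 14 value is shown as a description because it chose the gene. Ndst1 lies below 0 at day 14, and the intervals of the other 8 genes include 0 at both days.

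Counted together, 1 of the 10 genes, Sulf2, was called between genotypes at day 14, where 0.107% of all genes tested were called. Nothing is read from that count, since the call chose the gene. At day 0, 0 of 10 were called, against 0.0256% of all genes. There, 1 of the 10, again Sulf2, had an unadjusted p under 0.05, as 1319 of the 19557 genes (6.74%) did. DESeq2 called 0 of the 10 at day 0 and 26 genes in all. The median log2 fold change of the 10 genes was 0.03 at day 14 and -0.01 at day 0, and that of all genes was 0.00 at both days. Positive values were found for 6 of 10 genes at day 14 and 5 of 10 at day 0. Genotype groups did not overlap in CPM for 1 of the 10 at day 14, against 0.977% of all genes, and for 2 of the 10 at day 0, against 18.0% of all genes. The second share is close to the background. In FPKM 2 genes had separate groups at day 14 (Sulf2 and Ndst1), against 0.849% of all genes, and 2 at day 0 (Hs2st1 and Hs6st1), against 17.1% of all genes. The 1 gene apart in CPM at day 14 was Sulf2. Its day 14 difference chose it, so nothing is read from the day 14 counts in CPM or FPKM.

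Between the days, none of the 10 genes changed past the threshold in either genotype. Hs3st1 had the largest difference of the 10 in both. In KO lungs it had 28.8, 23.6, 31.2, 30.4 and 19.3 CPM at day 14 against 19.0 and 15.0 CPM at day 0 (log2 fold change +0.65, SE 0.222, 95% interval 0.18 to 1.13, unadjusted p = 0.0096, adjusted p = 0.384 in edgeR). All 5 day 14 libraries were above both day 0 libraries in CPM, although not in FPKM. In WT lungs it averaged 28.2 ± 6.22 CPM at day 14 and 21.5 ± 2.36 CPM at day 0 (SD, n = 6 and 4), for which the log2 fold change was +0.39 (SE 0.166, 95% interval 0.039 to 0.74, adjusted p = 0.505 in edgeR), with overlapping libraries.

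In KO lungs, Hpse had 9.99, 11.2, 8.39, 7.13 and 10.6 CPM at day 14 against 7.69 and 6.92 CPM at day 0 (log2 fold change +0.37, SE 0.173, adjusted p = 0.541 in edgeR). Heparanase differed little with day in WT lungs, where the log2 fold change was +0.04 (SE 0.130, adjusted p = 0.949 in edgeR). The test of the difference between the genotypes gave +0.33 (SE 0.215, adjusted p = 0.988 in edgeR). Ndst1 had a log2 fold change of -0.18 between day 14 and day 0 in KO lungs (SE 0.0748, adjusted p = 0.465 in edgeR) and -0.02 in WT lungs (SE 0.0582, adjusted p = 0.945 in edgeR). In WT lungs, Hs2st1 averaged 156 ± 11.5 CPM at day 14 and 171 ± 7.44 CPM at day 0 (log2 fold change -0.14, SE 0.0555, adjusted p = 0.452 in edgeR), and Ext1 averaged 56.8 ± 2.08 CPM at day 14 and 62.9 ± 4.86 CPM at day 0 (log2 fold change -0.15, SE 0.0644, adjusted p = 0.512 in edgeR). Sulf1 had log2 fold changes of +0.13 in KO (SE 0.111) and -0.05 in WT lungs (SE 0.0848), neither of them called. Those of Sulf2 were -0.05 in KO and -0.09 in WT lungs, given as a description because the day 14 values chose the gene.

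**Figure D4:**
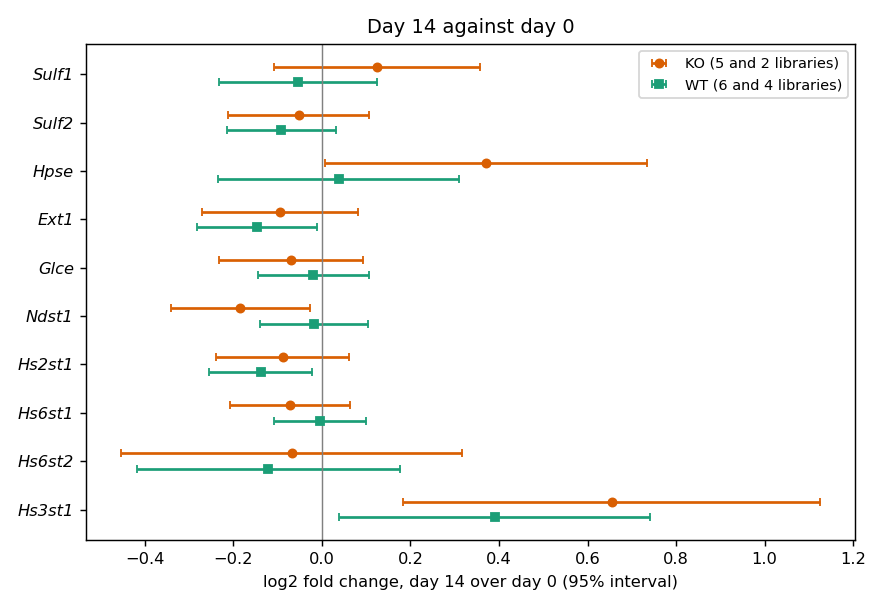
Log2 fold change of each gene at day 14 over day 0 in KO (upper symbol of each pair) and WT lungs (lower symbol), with 95% intervals from edgeR. Hs3st1 lies farthest to the right in both genotypes, and Sulf2, shown as a description, lies at -0.05 in KO and -0.09 in WT lungs.

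For day 14 against day 0, edgeR called 0 of 10 genes in KO, where 0.0% of all genes were called. There, 3 of the 10 had an unadjusted p under 0.05, beside 9.05% of all genes (1770). In WT, edgeR called 0 of 10, where 0.0% of all genes were called. Again 3 of the 10 had an unadjusted p under 0.05, beside 9.06% of all genes (1772). DESeq2 called 93 genes in KO and 113 in WT, none of them among the 10. The median log2 fold change of the 10 genes was -0.07 in KO and -0.04 in WT lungs, beside 0.01 and 0.00 for all genes. Groups did not overlap in CPM for 1 of 10 in KO, against 11.8% of all genes, and for 0 of 10 in WT, against 2.58% of all genes. In FPKM the groups overlapped for each of the 10 genes, where 11.2% of all genes in KO and 2.27% in WT had separate groups. No gene of the 10 had a KO effect that differed between days past the threshold, nor did any other gene in edgeR, where 0.0% of all genes were called. DESeq2 called 9 genes there, none of them among the 10. In edgeR, 0 of the 10, and 4.55% of all genes (890), had an unadjusted p under 0.05 in that test. The comparisons of days, and the difference of the KO effects, share the day 14 libraries with the comparison in which Sulf2 was picked, so nothing is read from Sulf2's place in these counts.

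The wider pathway was read from a list of 58 other genes of heparan sulfate assembly, donor supply, breakdown and core proteins. Of these, 57 were found, since 2 of the symbols name 1 gene, and 53 were tested. The untested ones were Ndst4, Hs3st2, Hs3st4 and Hs3st5, with 84, 3, 9 and 9 counts over all 17 libraries. In edgeR, 0 of 53 were called in any of the 5 comparisons, beside 0.0 to 0.107% of all genes, rates too low for the count to say anything about the list. Unadjusted p-values under 0.05 were found for 4 of 53 between genotypes at day 14, beside 8.95% of all genes, and for 1 of 53 at day 0, beside 6.74%. The same count was 5 of 53 between days in KO (9.05% of all genes), 5 of 53 between days in WT (9.06%) and 2 of 53 for the difference of the KO effects (4.55%). These counts lay near or under the background. Log2 fold changes in KO against WT were positive for 20 of 53 at day 14, beside 50.3% of all genes, and for 34 of 53 at day 0, beside 50.2%.

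Chain elongation genes were close to level, with a median log2 fold change over 4 genes of 0.08 at day 14 and 0.02 at day 0 in KO against WT. Ext2, the partner of Ext1 in the polymerase, averaged 86.7 ± 4.597 CPM in KO libraries and 87.2 ± 3.36 CPM in WT ones at day 14 (SD, n = 5 and 6), and 88.7 ± 7.21 CPM in KO libraries and 87.9 ± 2.80 CPM in WT ones at day 0 (SD, n = 2 and 4). The 7 linker genes had a median of -0.01 at day 14 and 0.05 at day 0. Of the 6 other sulfotransferases tested, 1 had a positive log2 fold change at day 14 and 3 at day 0. Among genes that supply precursors and sulfate donors, Slc26a2, a sulfate transporter, had 54.3 ± 2.22 CPM in KO libraries and 47.1 ± 3.09 CPM in WT ones at day 14 (log2 fold change +0.21, SE 0.0538, adjusted p = 0.211 in edgeR). It had 53.5 ± 2.20 CPM in KO libraries and 56.3 ± 3.65 CPM in WT ones at day 0, a log2 fold change of -0.07 (adjusted p = 0.897 in edgeR), so the sign was not the same. Hpse2, a relative of heparanase not known to cut the chain, was scarce, with 1.07 ± 0.217 CPM in KO libraries and 0.663 ± 0.164 CPM in WT ones at day 14 (log2 fold change +0.69, SE 0.200, adjusted p = 0.309 in edgeR).

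The core proteins that carry the chains ranged widely in level. Highest over the 17 libraries were Gpc3, a glypican, at 109 ± 9.05 FPKM, Agrn (agrin) at 100.1 ± 21.3 FPKM, Sdc4 (syndecan-4) at 73.6 ± 6.32 FPKM and Sdc1 (syndecan-1) at 69.2 ± 4.86 FPKM. Other glypicans were far lower, with Gpc4 at 10.3 ± 0.692 FPKM, Gpc1 at 9.41 ± 0.716 FPKM, Gpc6 at 0.885 ± 0.160 FPKM and Gpc5 at 0.661 ± 0.281 FPKM (SD, n = 17 for each gene). Hspg2, which encodes the basement membrane proteoglycan perlecan, came nearest to the threshold among the 14 tested. It averaged 285 ± 21.9 CPM in KO libraries and 344 ± 25.3 CPM in WT ones at day 14 (SD, n = 5 and 6), for which the log2 fold change was -0.27 (SE 0.0608, adjusted p = 0.116 in edgeR). At day 0 it averaged 358 ± 11.9 CPM in KO libraries and 369 ± 24.7 CPM in WT ones (SD, n = 2 and 4). Over the 14 core proteins the log2 fold change was positive for 4 at day 14 and 8 at day 0.

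A list of 18 ligands and receptors that bind heparan sulfate held 0 calls in any comparison, which at 0.0 to 0.107% of all genes called says nothing about the list. Cxcl12, a chemokine held by heparan sulfate, had 371 ± 33.5 CPM in KO libraries and 294 ± 30.8 CPM in WT ones at day 14 (log2 fold change +0.34, SE 0.0751, adjusted p = 0.116 in edgeR). At day 0 it had 455 ± 43.4 CPM in KO libraries and 365 ± 26.9 CPM in WT ones (log2 fold change +0.32, SE 0.106, adjusted p = 0.640 in edgeR). The 9 feedback targets of fibroblast growth factor signalling gave 0 calls too, with 2 of 9 positive in KO against WT at each day and medians of -0.13 at day 14 and -0.09 at day 0. Of 15 tested enzymes of chondroitin and dermatan sulfate, a related chain, 0 were called in any comparison. Chsy3, a chondroitin synthase, was nearest, with 2.15 ± 0.372 CPM at day 14 and 3.85 ± 0.499 CPM at day 0 in WT libraries (log2 fold change -0.84, SE 0.175, adjusted p = 0.177 in edgeR).

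**Figure D5:**
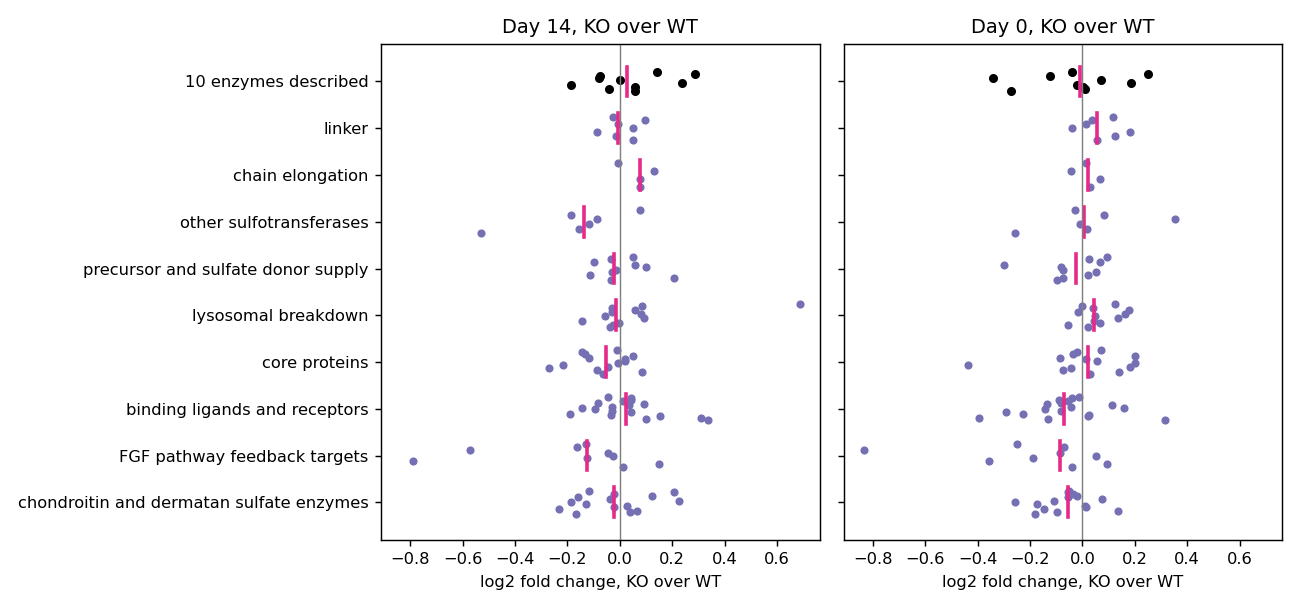
Log2 fold change in KO over WT lungs at day 14 (left) and day 0 (right) for the 10 enzymes (black) and for 9 lists of related genes (violet), 1 dot per tested gene, with the median of each list as a bar. The medians run from -0.14 to 0.08 on the log2 scale.

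The genes whose log2 CPM followed Sulf2 most closely over the 17 libraries were sought among 11782 genes with a mean of at least 5 CPM. They were Selenon (Pearson r = 0.855), Tmprss4 (0.853), Rragd (0.839), Asap3 (0.802) and Pigr (0.785). These are descriptions, since all libraries of a genotype share whatever the genotype changes. After each group's mean was taken off, r was 0.802 for Tmprss4 but 0.283 for Selenon, 0.537 for Rragd, 0.358 for Asap3 and 0.536 for Pigr. Selenon (134537892 to 134552166) and Asap3 (136206365 to 136245216) lie on chromosome 4 on either side of Clic4 (135213969 to 135272814), whereas Sulf2 lies on chromosome 2. Rragd (32983037 to 33022180) is also on chromosome 4 but far from Clic4. Tmprss4 lies on chromosome 9 and Pigr on chromosome 1. For Sulf1 the same search gave Msln (0.846), Rarres2 (0.840), Igfbp5 (0.818), C2 (0.781) and Olfml1 (0.778), with r of 0.769 to 0.878 after the group means were taken off. The sulfatases thus had different nearest neighbours. Msln is a marker of mesothelium, and the 4 mesothelial markers summed to 239 to 389 CPM in KO day 14, 235 to 329 CPM in WT day 14, 288 to 340 CPM in KO day 0 and 258 to 327 CPM in WT day 0 libraries.

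Of the 98 tested markers of the 18 cell type lists, 0 were called in any comparison, but the summed levels of several lists differed between groups. The sums did not overlap between genotypes for 9 of 18 lists at day 0, where 18.0% of single genes did not overlap. At day 14 they did not overlap for 1 of 18 lists, beside 0.977% of single genes. These shares are for single genes, and none was taken for sums of markers, so the 2 measures are unlike. At day 0, without overlap, the KO libraries were higher in summed CPM of smooth muscle (899 to 920 against 672 to 840 in WT), fibroblast (3179 to 3363 against 2459 to 3143 in WT) and alveolar type 2 markers (20250 to 22820 against 15910 to 19600 in WT). Epithelial and mammary markers were higher too (858 to 868 against 773 to 850 in WT). The KO libraries were lower in endothelial (4541 to 4604 against 4655 to 5138 in WT), mast cell (233 to 253 against 267 to 288 in WT) and B cell markers (82.8 to 146 against 179 to 249.9 in WT). They were also lower in NK cell (26.0 to 55.1 against 66.2 to 137 in WT) and T cell markers (49.9 to 59.5 against 62.7 to 87.1 in WT). Single markers did not all follow the sums, since 5 of 8 fibroblast, 2 of 7 endothelial, 2 of 5 mast cell and 5 of 7 epithelial and mammary markers had positive log2 fold changes. Other lists overlapped at day 0 but held markers of 1 sign, among them adipose (5 of 5 positive, median log2 fold change 0.98, 23.9 to 74.9 CPM against 17.03 to 24.1 CPM in WT) and alveolar macrophage (6 of 6 positive, median 0.32, 467 to 652 CPM against 234 to 492 CPM in WT). Markers of proliferation (0 of 5 positive, median -0.72, 40.1 to 42.0 CPM against 35.4 to 102 CPM in WT) and platelets (0 of 5 positive, median -0.51, 41.1 to 42.3 CPM against 31.99 to 69.1 CPM in WT) went the other way. At day 14 the alveolar type 1 markers were lower in KO (2647 to 2733 CPM) than in WT libraries (2813 to 3078 CPM). Heart muscle markers, which overlapped, had 0 of 5 positive log2 fold changes at day 14 (median -0.46, 809 to 1306 CPM in KO against 1081 to 1890 CPM in WT). NK cell markers, which overlapped too, had 0 of 5 positive (median -0.66, 39.1 to 58.4 CPM against 49.99 to 153.5 CPM in WT). Other overlapping lists of 1 sign at day 14 were neutrophil (0 of 5 positive), smooth muscle (5 of 5), airway (5 of 5) and mesothelial (4 of 4). Smooth muscle (759 to 982 against 683 to 828 CPM in WT), fibroblast (2215 to 3448 against 2224 to 2792 CPM in WT) and alveolar type 2 markers (16090 to 20010 against 15970 to 19130 CPM in WT) overlapped there. Neutrophil markers summed to 134 to 526 CPM at day 14 and 62.1 to 120 CPM at day 0 in WT libraries, without overlap. Between days in KO, 4 of 18 lists did not overlap, where 11.8% of single genes did not. Platelet markers were higher at day 14 (48.5 to 92.9 against 41.1 to 42.3 CPM). Endothelial markers were lower (4226 to 4487 against 4541 to 4604 CPM). So were alveolar type 2 (16090 to 20010 against 20250 to 22820) and epithelial and mammary markers (720 to 814 against 858 to 868 CPM). The part of these marker levels in the values of the 10 enzymes was not tested.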

How the data were processed

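Lung RNA was sequenced in 17 libraries, grouped by the genotype and time labels. The deposited tables hold expected counts, which the authors estimated per gene for each library, and a joint table of FPKM that the authors scaled for transcript length and library size. Per the submitters' processing notes, STAR 2.5.3, RSEM 1.3.0 and limma 3.38.3 were used with build mm10. Per the labels' protocols, RNA was extracted with Qiagen RNeasy and libraries were made with Illumina TruSeq. The annotation release, filters and use of strand are not given in the sources used here. The series' design text gives other group sizes than the sample labels, and the sample labels were followed.

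Expected counts, of which 13.86 to 17.14% per library were not whole, were rounded. Genes were filtered with filterByExpr by group, scaled with TMM (factors 0.977 to 1.01) and fitted in 1 edgeR 4.0.16 quasi-likelihood model over all 4 groups (R 4.3.3). All p-values are two-sided and were adjusted by Benjamini-Hochberg over the 19557 genes in each of 5 comparisons. SE is the log2 fold change over the root of F, and 95% intervals use the t distribution with the model's degrees of freedom. The share of Sulf2 was tested by exact permutation over libraries at day 0 only; planned tests between days were dropped because the day 14 values chose the gene. DESeq2 1.42.0, limma-voom and limma on log2 FPKM (limma 3.58.1), other filters and scalings, the 2 groups alone and each library left out were tried as alternatives. On simulated counts of 19557 genes, changes were given only to genes with a mean above 5 CPM. Hs6st2, with group means of 3.51 to 4.34 CPM, lay below that level. The fit called 79.1% of the 67 genes changed by a log2 of 0.5 at day 14. At day 0 it called 55.2% of 67 such genes. False calls numbered 5 at day 14 and 8 at day 0. The enzymes' log2 fold changes between genotypes were smaller in size, from -0.19 to 0.29 at day 14 and -0.34 to 0.25 at day 0. The simulated rates therefore do not say how often changes of the enzymes' size would be called. Intervals cover the spread between libraries.

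The 10 genes and 27 lists of pathway and marker genes were chosen with earlier results of these data known, the pathway and marker lists from general knowledge. Clic4 and the 10 genes were always named. Of each pathway list, genes were named from the 4 with the smallest p in a comparison. Some core proteins were named for their FPKM level instead, and untested genes were named as untested. Genes like Sulf2 or Sulf1 were the 5 with the highest Pearson r of log2 CPM (prior count 2), without predicted genes and pseudogenes. Coordinates are from GENCODE (GRCm38) and promoter windows from RefSeq.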

Additional observations from a re-analysis of the deposited data

Results flagged for a closer look

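Sulf1 in WT day 0 library 2, at 101.8 CPM, stood apart from the other 3 WT day 0 libraries, which had 88.2, 89.1 and 88.3 CPM. The gap to the nearest of them was 0.938 of the group's whole range, above Dixon's 95% critical value for 4 samples. In all, 30 groups of values were tested in this way, and chance marks about 1 in 20. The same library had the lowest Sulf2 share of its group, 28.7%, against 34.8 to 37.0% in the other 3.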

How the results depend on the processing

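Over 1290 values of the 10 genes under alternatives, 1219 kept their direction and their side of the threshold, 0 became called, 50 that were never called changed sign, and 21 were the lost calls of Sulf2 at day 14. The largest value after a sign change was -0.20, of Hs6st2 for the difference of the KO effects in limma on log2(FPKM + 0.1). Of the 10 genes, 0 in place of 1 were called at day 14 in limma-voom, without a filter, with the 2 groups only and in every FPKM fit. With 1 library left out the count was 0 to 1.

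Genes called in KO against WT at day 0 numbered 5, and 26 in DESeq2, 3 in limma-voom, 13 with the 2 groups only, 17 in unfiltered log2(FPKM + 1) and 2 to 7 with 1 library left out (2 without KO day 0 library 1 or 2, 3 without WT day 0 library 2). At day 14 they numbered 21, and 109 in DESeq2 and 15 to 27 with 1 library left out. Between days in WT they numbered 0, and 113 in DESeq2, 1 in limma-voom, 5 without a filter, 1 in log2(FPKM + 0.1) and 0 to 22 with 1 library left out (22 without WT day 14 library 5). Between days in KO they numbered 0, and 93 in DESeq2, 2 with the 2 groups only, 1 in log2(FPKM + 1), 4 in log2(FPKM + 0.1), 19 unfiltered and 0 to 12 with 1 library left out (12 without KO day 14 library 2). For the difference of the KO effects they numbered 0, and 9 in DESeq2, 1 without TMM, 1 at a mean of at least 1 CPM, 3 in log2(FPKM + 1), 3 in log2(FPKM + 0.1), 7 unfiltered and 0 to 1 with 1 library left out. The Sulf2 share in WT, day 14 minus day 0, was -4.18 to -1.41 points with 1 library left out (-4.18 without WT day 0 library 2). The causes were not tested.

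No paired analysis was possible because each library has its own number in the labels and replicate numbers here only name libraries. Hpse, with 186 to 341 counts per library, and Hs6st2, with 92 to 165, were the most limited by depth.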
